A study of Mus musculus with 2 samples.

Results

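The guanylate-binding proteins (GBPs) and immunity-related GTPases (IRGs) were examined in mouse peritoneal macrophages treated with LPS+CPN or with LPS+CPN+GGOH. The set held 10 genes, Gbp2, Gbp3, Gbp5, Gbp6, Gbp7, Gbp8, Ifi47, Igtp, Irgm1 and Irgm2. All but Gbp5 were among the 18093 genes with a value. All probe sets that the array's annotation assigns to exactly 1 of these symbols were taken, which gave 12 probe sets of 9 genes. Gbp5 was not matched to such a probe set and was not analysed here. The set was chosen by measured values: Gbp7 and Ifi47 had some of the lowest ratios of signal between these same arrays. All ratios below are therefore a description of the arrays, without a test.

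Per the labels, C57BL/6J mice were injected with thioglycolate, an irritant that recruits macrophages into the peritoneal cavity, and the cells were taken 3 days later. Each treatment was measured on 1 array. Both cultures received lipopolysaccharide (LPS), a bacterial cell wall component, and CPN, a compound that the labels give by this abbreviation alone. One of them also received geranylgeraniol (GGOH), an isoprenoid alcohol, and the design sets out to find genes that this addition raises or lowers. Neither array measured untreated cells or cells given LPS alone, so induction of the GTPases by LPS was not measured. The sources used here do not give doses, treatment times, the age of the mice, or whether animals were pooled or shared between cultures.

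GBPs and IRGs are GTP-hydrolysing proteins that interferons induce strongly in macrophages. They gather on the vacuoles of intracellular parasites and bacteria, help to break these open, and expose bacterial LPS to cytosolic sensors. Gbp2 and Gbp5 are known to end in a motif to which an isoprenoid lipid is attached, the same class of lipid that geranylgeraniol can feed. Interferons reach these genes through STAT proteins, which bind the GAS motif, and through interferon regulatory factors and the ISGF3 complex, which bind interferon-stimulated motifs.

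The promoters of 8 of the 10 genes were found in the RefSeq table (build GRCm38.p6), as 9 windows of 250 bases before to 50 bases after a start site. The 5 windows below are shown because they belong to the 3 genes with the lowest ratios (Ifi47, Gbp7 and Irgm2), to the direct neighbour of Irgm2 (Igtp), and to a member that carries the prenylation motif (Gbp2). Capitals mark matches on either strand to the GAS motif TTCNNNGAA or to the interferon-stimulated motif, which reads GAAA, then any 2 bases, then GAAA (TTTC, any 2 bases and TTTC from the other strand). All are written 5′ to 3′ along the gene.
Gbp7, chr3:142530086-142530385, plus strand: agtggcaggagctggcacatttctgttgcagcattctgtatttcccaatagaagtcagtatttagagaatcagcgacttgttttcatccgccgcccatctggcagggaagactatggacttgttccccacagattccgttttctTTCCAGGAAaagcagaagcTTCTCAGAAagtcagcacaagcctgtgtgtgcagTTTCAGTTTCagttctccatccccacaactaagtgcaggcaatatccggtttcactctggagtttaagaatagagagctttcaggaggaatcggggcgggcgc
Gbp2, chr3:142620413-142620712, plus strand: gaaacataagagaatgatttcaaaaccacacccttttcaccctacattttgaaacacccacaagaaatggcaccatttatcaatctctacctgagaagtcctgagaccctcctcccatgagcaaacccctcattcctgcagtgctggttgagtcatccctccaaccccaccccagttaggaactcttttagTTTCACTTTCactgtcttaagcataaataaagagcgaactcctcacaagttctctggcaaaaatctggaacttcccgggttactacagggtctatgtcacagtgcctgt
Ifi47, chr11:49076337-49076636, plus strand: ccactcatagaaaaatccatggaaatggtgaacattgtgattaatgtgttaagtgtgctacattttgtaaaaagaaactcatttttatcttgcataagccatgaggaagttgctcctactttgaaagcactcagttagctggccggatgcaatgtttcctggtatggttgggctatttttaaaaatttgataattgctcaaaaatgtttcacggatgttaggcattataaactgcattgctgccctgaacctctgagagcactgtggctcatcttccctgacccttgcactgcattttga
Igtp, chr11:58199306-58199605, plus strand: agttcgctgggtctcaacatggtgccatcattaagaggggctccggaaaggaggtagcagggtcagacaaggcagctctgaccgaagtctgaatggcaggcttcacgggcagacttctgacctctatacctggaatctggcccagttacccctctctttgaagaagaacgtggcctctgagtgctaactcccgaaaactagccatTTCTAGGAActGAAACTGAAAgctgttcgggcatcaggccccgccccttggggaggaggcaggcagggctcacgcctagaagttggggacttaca
Irgm2, chr11:58214727-58215026, plus strand: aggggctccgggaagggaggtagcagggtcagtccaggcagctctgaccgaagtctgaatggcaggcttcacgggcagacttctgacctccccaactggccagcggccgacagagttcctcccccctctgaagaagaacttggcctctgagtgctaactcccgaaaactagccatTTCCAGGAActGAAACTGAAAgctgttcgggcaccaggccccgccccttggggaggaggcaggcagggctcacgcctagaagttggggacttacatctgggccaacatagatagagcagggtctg

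Promoter windows of 7 of the 8 genes held the interferon-stimulated motif and those of 4 held the GAS motif. Over all 32851 windows in the table the shares were 3.44% and 8.30%, and counted by gene they were 3.99% and 9.55% of 27025 genes. In Gbp7 the GAS matches began 106 and 87 bases before the start site and the interferon-stimulated match 53 bases before it. Gbp2 held only the interferon-stimulated motif, 59 bases before its start. The windows of the neighbouring genes Igtp and Irgm2 were 90.4% identical over 270 aligned positions, with a shared run of 61 bases, and each had a GAS match directly upstream of an interferon-stimulated match. Gbp3 and Irgm1 held overlapping interferon-stimulated matches and no GAS match. Neither motif was found in the Ifi47 window, which says only that these letters are not in those 300 bases. Among other lists, the interferon-stimulated motif was found for 16 of 30 type I interferon targets, 5 of 24 interferon-gamma-type targets and 1 of 13 macrophage markers with a window.

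**Figure D1:**
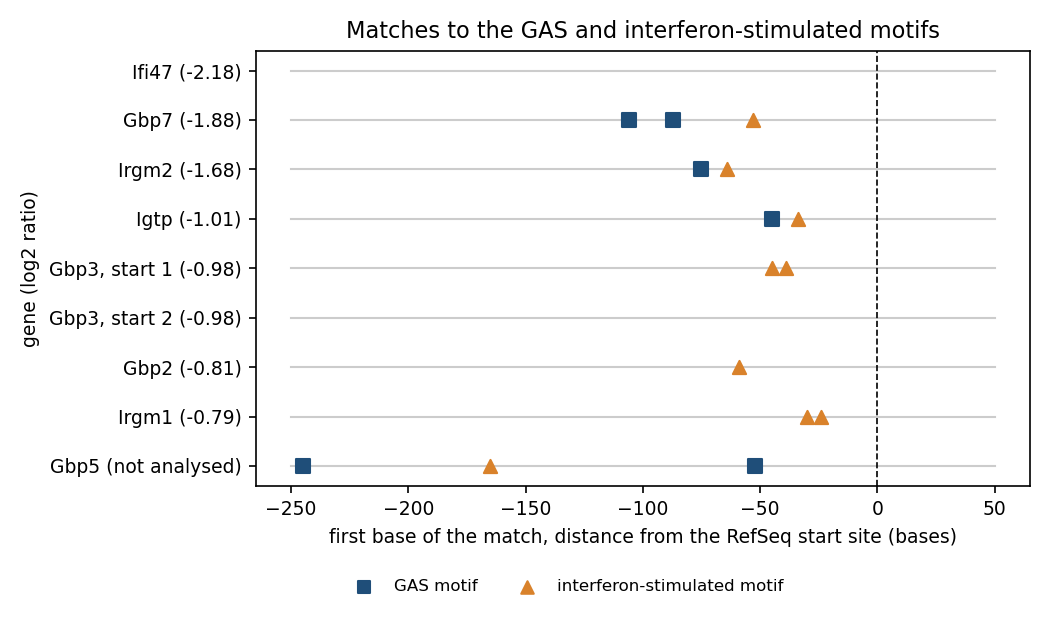
Matches to the GAS motif (squares) and the interferon-stimulated motif (triangles) in each RefSeq promoter window, by distance from the start site in bases; the log2 ratio of the gene stands beside its name. In Gbp7, Irgm2, Igtp, Gbp3, Gbp2 and Irgm1 all matches begin between 106 and 24 bases before a start site, and Ifi47 has none.

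On the arrays, every measured GTPase of the set had a lower signal with GGOH. The log2 ratio is the log2 signal on the LPS+CPN+GGOH array minus that on the LPS+CPN array. It was below 0 for all 12 probe sets and all 9 genes, against 51.4% of all measured genes. Its median over the 9 genes was -1.01, which is 2.02-fold lower. All 9 passed the filter on low values, a floor at a signal of 59.9, on both arrays. At least 2-fold lower were 5 of the 9 genes (Ifi47, Gbp7, Irgm2, Gbp8 and Igtp), and none was higher. Of 11518 genes measured on at least 1 array, 1.66% were at least 2-fold lower and 5.50% at least 2-fold higher, with a median log2 ratio of -0.01. Because the same contrast chose the set, this difference from the background is built in. Without Gbp7 and Ifi47, the genes that prompted the choice, 3 of 7 were at least 2-fold lower and the median was -0.98. These 7 were also chosen with earlier results of the same arrays known, so leaving out Gbp7 and Ifi47 is not an independent check.

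The arrays carry other differences that bear on every value here. The deposited signals had a mean of 500.0 over the central 96% of probe sets on each array, and the median signals were 56.7 with LPS+CPN and 63.7 with GGOH. Macrophage markers were present on both arrays: 19 of 20 were above the floor, and only Cd163 was at the floor on both. Their summed signal was 292933 with LPS+CPN and 262092 with GGOH, and their median log2 ratio was -0.19, or 0.02 after quantile normalization. Of the 19, 11 had a ratio below 0 and none was 2-fold lower, while Itgam (1.05) and Mrc1 (1.06) were at least 2-fold higher. Mesothelial and fibroblast markers were higher with GGOH, with 15 of 17 measured ones at least 2-fold higher and a summed signal of 2019 against 38766. With LPS+CPN, 15 of these 20 markers were at the floor, Msln, Wt1, Col1a1 and Pdgfra among them. In bulk RNA, fewer macrophages and less of a transcript per macrophage cannot be told apart. With the arrays scaled to equal macrophage markers, the median of the GTPases was -0.82 and 4 of 9 stayed at least 2-fold lower (Ifi47, Gbp7, Irgm2 and Gbp8).

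RNA controls differed as well. The 5' probe set of beta-actin gave 15562 with LPS+CPN and 29426 with GGOH, while its 3' probe set gave 38035 and 36623. For Gapdh the 5' signals were 16659 and 28292 and the 3' signals 33021 and 27052. The part of RNA quality in the GTPase ratios was not tested.

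**Figure D2:**
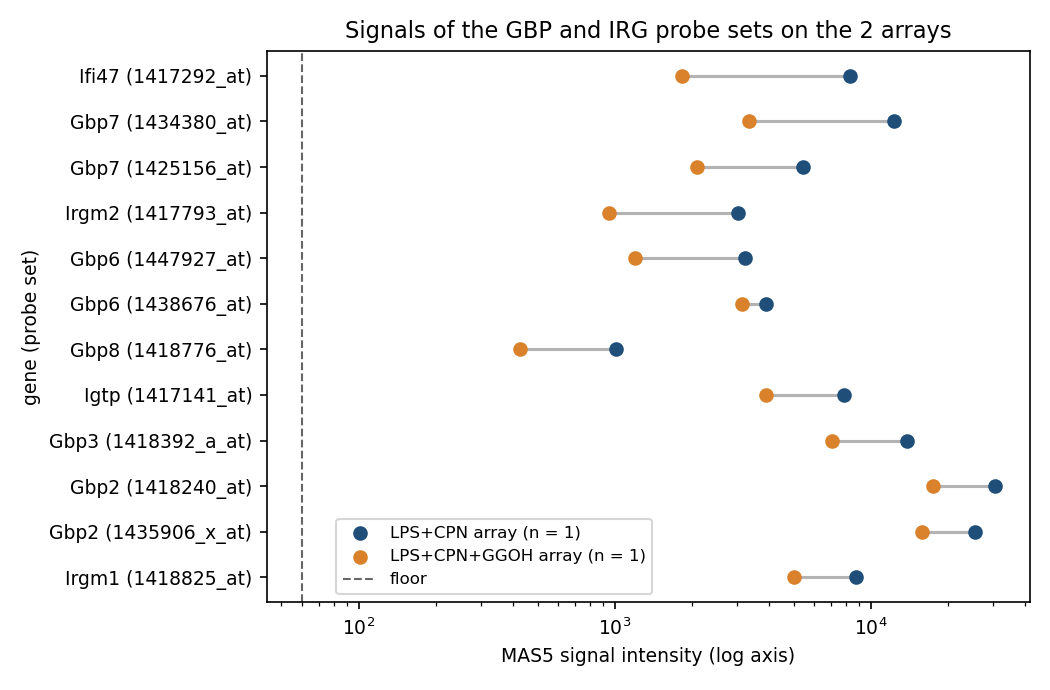
Signal intensity (log axis) of the 12 GBP and IRG probe sets on the LPS+CPN array and the LPS+CPN+GGOH array, 1 array each, joined by a line; the dashed line is the floor of 59.9. The GGOH point lies to the left of the LPS+CPN point in all 12 probe sets, by most for Ifi47 and by least for 1 of the probe sets of Gbp6.

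The GBPs are large GTPases that self-assemble into coats on membranes. Gbp2, a prenylated member that coats parasite vacuoles, gave a signal of 30577 with LPS+CPN and 17452 with GGOH, a log2 ratio of -0.81 (1.75-fold lower). A second Gbp2 probe set, of a class that can cross-hybridize, gave 25608 and 15848 (-0.69). The Gbp2 probe sets thus differed by 0.12, within the spread between probe sets of a gene. That spread was a pooled SD of 0.45 on the log2 scale over 4166 genes, which implies an SD of 0.63 for the difference between the ratios of 2 probe sets. Gbp3 lies next to Gbp7 on chromosome 3 and gave 13912 with LPS+CPN and 7040 with GGOH. Its ratio of -0.98 stood just short of 2-fold, and it passed 2-fold when the arrays were divided by their medians (-1.15).

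Gbp7 had the lowest ratio among the GBPs. Its brighter probe set gave 12299 with LPS+CPN and 3348 with GGOH, 3.67-fold lower (log2 ratio -1.88), and its other probe set gave 5418 and 2095 (-1.37). Both were at least 2-fold lower. Gbp8, a member of the GBP cluster on chromosome 5, gave a signal of 1008 with LPS+CPN and 426 with GGOH (-1.24, 2.37-fold lower). These remained 16.8 and 7.11 times the floor, so the ratio is not a bound.

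Only 3 members, Gbp2, Gbp6 and Gbp7, had 2 probe sets that could be set side by side. The other 6 rested on 1 probe set each, among them Ifi47, Irgm2, Gbp8 and Igtp. Of the 3, Gbp6 was the member whose probe sets did not match each other. The brighter one, used for the gene, gave 3888 and 3152 (log2 ratio -0.30), and the other gave 3225 and 1204 (-1.42). They differed by 1.12, more than the 0.63 that the spread implies, and their median was -0.86. Gbp6 belongs to a group of closely related genes that includes Gbp10, so its signal may be shared among copies and its value is uncertain.

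The IRGs are smaller GTPases of which some load onto vacuoles and others regulate that loading. Ifi47 (IRGD), an effector type, had the lowest ratio of the whole set, with a signal of 8299 with LPS+CPN and 1835 with GGOH, 4.52-fold lower (log2 ratio -2.18). It ranked 5 from the bottom among 9909 genes measured on both arrays, and Gbp7 ranked 10. Its signal with GGOH was 22.1% of that with LPS+CPN, against 57.7% for Irgm1.

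The regulatory members Irgm1, Irgm2 and Igtp (IRGM3) keep the effector IRGs inactive on the cell's own membranes. They spanned a range of ratios. Irgm2 gave 3034 with LPS+CPN and 950 with GGOH (-1.68, 3.19-fold lower). Igtp gave 7844 and 3889 (-1.01, 2.02-fold lower), at the edge of the 2-fold line. Irgm1 gave 8728 and 5036 (-0.79, 1.73-fold lower). The Igtp call did not hold under quantile normalization, lowess or equal macrophage markers.

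The order of the members from the lowest ratio was Ifi47, Gbp7, Irgm2, Gbp8, Igtp, Gbp3, Gbp2, Irgm1 and Gbp6. The 8 gaps between neighbours in this order ran from 0.02 to 0.49. No neighbours in the order stood apart by more than the SD of 0.63 for a difference between probe sets. That SD comes from probe sets of the same gene on these arrays and does not measure variation between cultures. Of the 36 pairs of members, 20 differed by more than 0.63. Ifi47 and Irgm1, for example, differed by 1.38, and Igtp and Irgm2 by 0.66. The medians of the families were -0.98 for the 5 GBPs and -1.34 for the 4 IRGs, with ranges that overlapped.

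**Figure D3:**
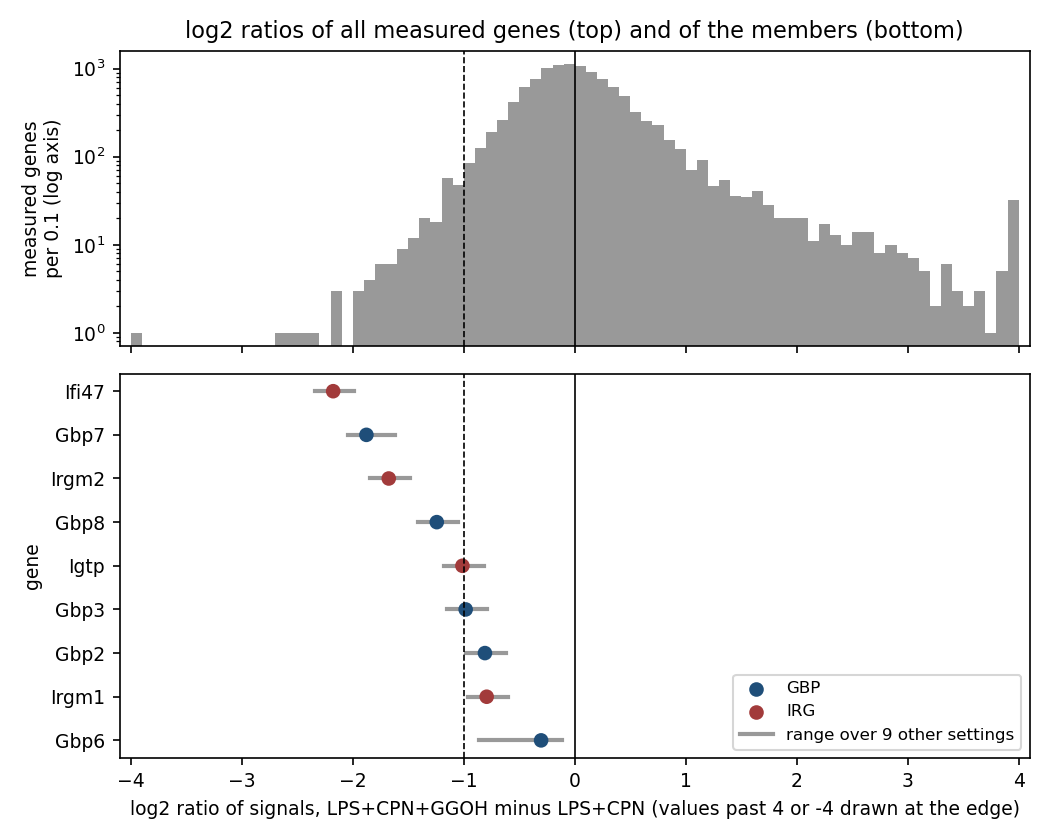
Top, the number of the 11518 measured genes per 0.1 of log2 ratio (log axis; bounds included). Bottom, the log2 ratio of each member (points; GBP blue, IRG red) with its range over 9 other processing settings (grey lines). All points and grey lines lie below 0, and Ifi47, Gbp7, Irgm2 and Gbp8 lie below the dashed 2-fold line along their whole range.

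Members that held both motifs in a promoter window had ratios of -1.88 (Gbp7), -1.68 (Irgm2) and -1.01 (Igtp). Those with the interferon-stimulated motif alone had -0.98 (Gbp3), -0.81 (Gbp2) and -0.79 (Irgm1). The groups did not overlap, but Igtp and Gbp3, their nearest members, differed by only 0.03. The SD of 0.63 is between probe sets of the same gene, so it cannot say whether the groups differ. Ifi47, with neither match, was lower than all of these members. This split was made after the values were seen. Outside the set it was not found: 43 measured genes with both motifs had a median log2 ratio of -0.03, and 294 with the interferon-stimulated motif alone had -0.10. At least 2-fold lower were 1 of the 43 with both motifs (2.33%), 8 of the 294 with the interferon-stimulated motif alone (2.72%), 20 of 709 with the GAS motif alone (2.82%) and 127 of 8298 with neither (1.53%).

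The GTPase genes lie in tandem clusters, and ratios are also given here for the genes beside them, which belong to unrelated families. The clusters were taken with the 3 protein-coding genes on each side, a rule set after the values were seen. On chromosome 3 the order is Gbp5, Gbp7, Gbp3, Gbp2b and Gbp2. Gbp7 (-1.88), Gbp3 (-0.98) and Gbp2 (-0.81) had lower ratios than all 5 measured flanking genes, which ran from -0.44 for Gtf2b, a general transcription factor, to 0.25 for Pdlim5. On chromosome 5 only 1 flanking gene was measured, Lrrc8c (-0.51), between the values of Gbp8 (-1.24) and Gbp6 (-0.30). On chromosome 11, Igtp and Irgm2 lie side by side, and the 4 measured genes around them ran from -0.03 to 0.24. Near Irgm1 and Ifi47 the only flanking gene measured on both arrays was Trim41 (0.13). Over all clusters, 0 of 11 flanking genes measured on both arrays were at least 2-fold lower, and their median was -0.03. The share of all measured genes was 1.66%, and so few flanking genes cannot be told apart from it.

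**Figure D4:**
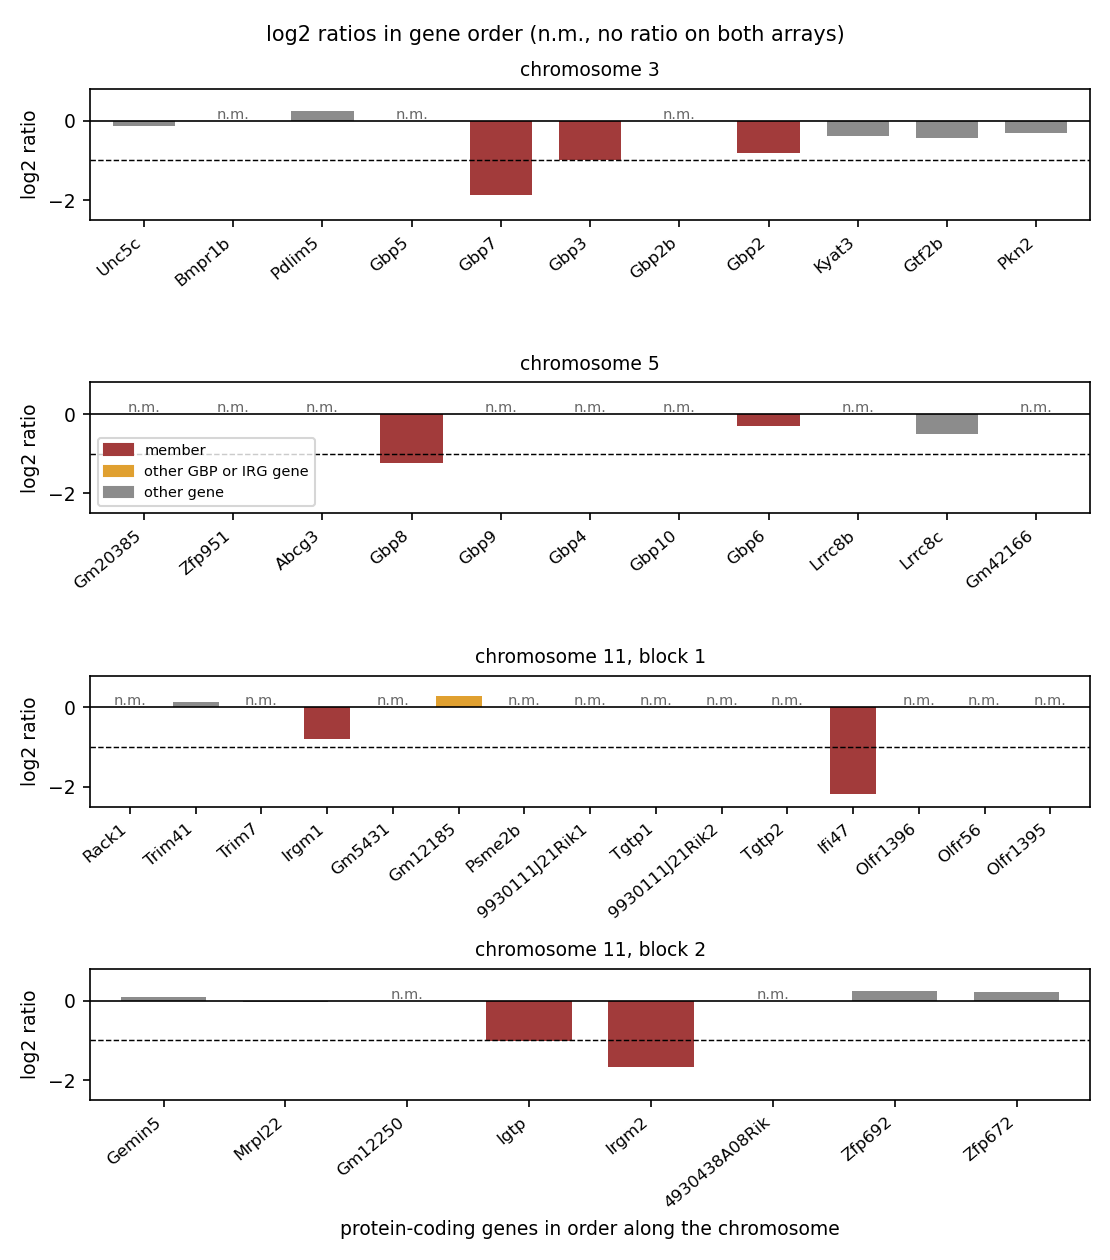
log2 ratios of protein-coding genes in their order along the chromosome around the GTPase clusters (members red, other GBP or IRG genes yellow, other genes grey; n.m., no ratio from both arrays; dashed line, 2-fold lower). Flanking genes stay between -0.51 and 0.25 on either side of the members.

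Other GBP and IRG genes gave few values. Of 18 listed, 6 had a usable probe set and 4 rose above the floor. At least 2-fold lower were 2 of these 4 and none was higher, against 1.66% lower and 5.50% higher over all measured genes. The median of the 4 was -1.12. Iigp1 (IRGA6), an effector IRG, gave 2928 with LPS+CPN and 950 with GGOH (-1.62), and its second probe set gave 1265 and 454 (-1.48). Gm4951, an IRG-like gene, gave 759 and 224 (-1.76). Irgq, a divergent family member, had a ratio of -0.63, and Gm12185 stood close to the floor on both arrays (61.4 and 74.8). Gbp2b, which lies between Gbp3 and Gbp2, was at the floor on both arrays.

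Among 25 measured genes of interferon ligands, receptors and signalling, 3 were at least 2-fold lower and none was higher, with a median of -0.38. Over all measured genes the shares were 1.66% lower and 5.50% higher. Irf1, a transcription factor that drives GBP and IRG genes, gave 18294 with LPS+CPN and 2904 with GGOH (-2.66, 6.30-fold lower), a lower ratio than any member's. Socs3, a feedback inhibitor of cytokine receptors, followed at -1.77, then Batf2, a transcription factor (-1.14), and the phosphatase gene Ptpn2 (-0.92). Brighter Socs3 probe sets, of the class that can cross-hybridize, gave -1.30 and -1.02. The other Ptpn2 probe sets above the floor on both arrays gave -0.59 and -0.31. Irf8, a macrophage lineage factor that also binds these promoters, had a ratio of -0.75, or -1.12 at its other probe set. The interferon receptor genes were not lower as a set: Ifngr1 had a ratio of 0.53, Ifngr2 0.38, Ifnar1 -0.18 and Ifnar2 0.01. Ifnb1, the type I interferon that LPS induces in macrophages, gave 126 and 87.2, near the floor. Ifng was at the floor on both arrays.

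Lymphocytes are a usual source of interferon-gamma, and their markers were mostly absent. Of 18 T, NK and innate lymphoid markers on the array, 15 were at the floor on both arrays, among them Cd3d, Cd3e, Cd3g and Ncr1. The summed signal of the list, 20422 with LPS+CPN and 15485 with GGOH, came mainly from Il7r (19902 and 14869). The other measured markers were higher with GGOH: Klrk1 gave 161 and 253, and Thy1 was above the floor only with GGOH (105). Thy1 is also on the list of mesothelial and fibroblast markers, so its signal is not particular to lymphoid cells. The median log2 ratio of the measured markers was 0.65. B cell markers summed to 958 and 1107, with Cd79a and Ms4a1 at the floor. Cd22 made up most of that sum (688 and 829). Ighm gave 92.2 and 72.6, and Blk was above the floor only with GGOH (102). Neutrophil markers summed to 5400 and 3409, with S100a9, Camp and Mpo at the floor. Most of that sum was S100a8 (4282 and 2216), while Mmp8 (1.12) and Csf3r (0.19) had ratios above 0. All 11 eosinophil and mast cell markers were at the floor. Dendritic cell markers summed to 1787 and 1490, with Flt3 and Xcr1 at the floor. Itgax made up most of that sum (1313 and 914), and Zbtb46 had a ratio of 0.65 and Ccr7 signals of 28.5 and 83.3. Endothelial markers summed to 470 and 561, with Cdh5 and Pecam1 at the floor, Esam at 1.69 and Vwf at -1.07. Their part in the GTPase ratios was not tested.

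Other interferon-induced genes had list medians nearer to 0 than the GTPases, which were chosen for low ratios, and the difference has no test. These lists were also chosen with earlier results of these data known. Of all measured genes, 1.66% were at least 2-fold lower and 5.50% at least 2-fold higher. Of 28 measured interferon-gamma-type targets 3 were at least 2-fold lower and none higher, with a median of -0.26. They were Ubd, a ubiquitin-like modifier (-2.00), Calhm6 (-1.58) and Upp1 (-1.03), and the peptide transporter gene Tap2 stood at -0.94. The chemokine genes Cxcl9 and Cxcl10 had ratios of 0.30 and 0.03. Of 34 measured type I interferon targets 6 were at least 2-fold lower and none higher, with a median of -0.39. The ADP-ribosyltransferase genes Parp14 (-1.72) and Parp9 (-1.16) were among these, as were Ifit1 (-1.16) and Cmpk2 (-1.09). Cmpk2 had a ratio of -0.51 at its second probe set. Mx1, an antiviral GTPase of the dynamin family, had a ratio of -0.24 and Mx2 one of 0.10.

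**Figure D5:**
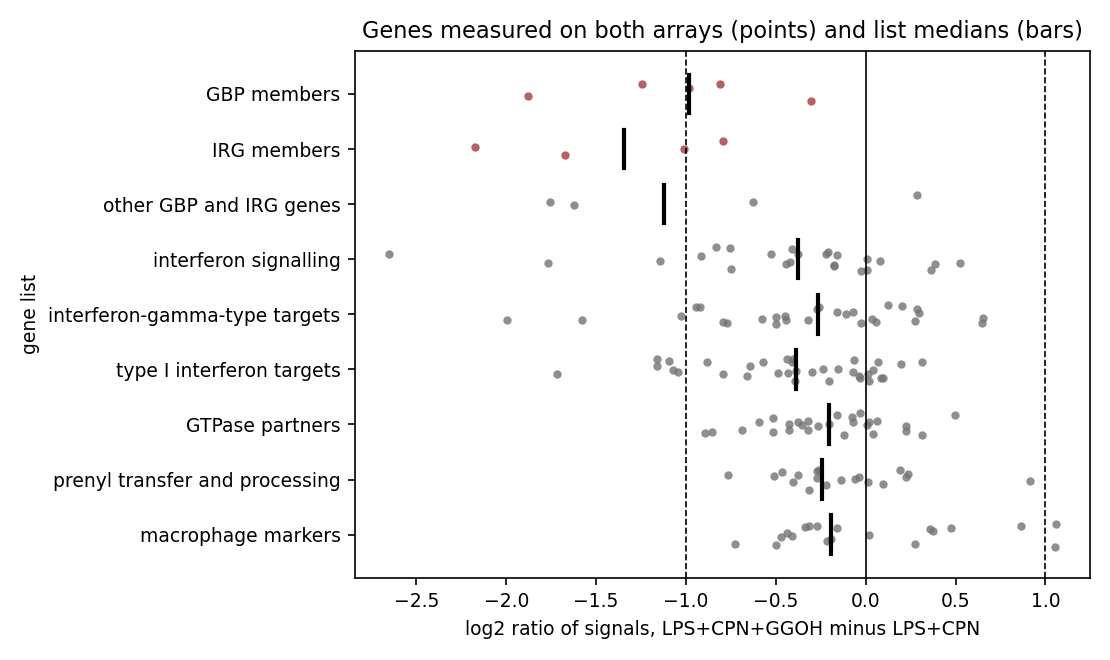
log2 ratio of each gene measured on both arrays (points, members red) by gene list; black bars are list medians, which also take in genes known only by a bound, and dashed lines mark 2-fold. The medians of the member families (-0.98 and -1.34) and of other GBP and IRG genes (-1.12) lie to the left of those of the interferon target lists (-0.26 and -0.39) and of macrophage markers (-0.19).

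Genes that work with the GTPases had a list median closer to 0 than that of the members, which were chosen for low ratios. Single genes of the 2 groups overlapped. None of 27 partners in GTPase targeting and vacuole attack was 2-fold lower or higher, against 1.66% lower and 5.50% higher over all measured genes. A count of none among so few genes is near these shares. The median of the partners was -0.21. The largest ratios were those of Rnf213, a ubiquitin ligase (-0.89), Trim21, an antibody receptor and ubiquitin ligase (-0.85), Nlrp3, an inflammasome sensor (-0.69), and Casp4, the sensor of cytosolic LPS (-0.59). A second Trim21 probe set gave -0.28. The autophagy genes Atg5 (-0.38), Atg7 (-0.03), Atg3 (0.22) and Gabarapl2 (0.02), whose products direct GBPs and IRGs to vacuoles, lay closer to 0. Nos2, which makes nitric oxide against the same pathogens, gave 190 and 141 (-0.43).

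Another list held enzymes that make, attach and process the prenyl group of proteins such as Gbp2 and Gbp5. None of its 19 genes measured on both arrays was 2-fold lower or higher. This count is near the shares of all measured genes, 1.66% lower and 5.50% higher. The median over 20 measured genes, 1 of them known only by a bound, was -0.24. Fnta, the alpha subunit shared by the enzymes that attach farnesyl and geranylgeranyl groups to proteins, gave 3592 and 2113 (-0.77), and its second probe set gave -0.64. Fntb, the beta subunit for farnesyl transfer, was above the floor only with LPS+CPN (98.3) and was at least 1.64-fold lower. Pggt1b, the beta subunit for geranylgeranyl transfer, had a ratio of -0.27, and its other probe sets above the floor gave -0.50 and 0.12. Rabggta of the Rab enzyme had a ratio of -0.04, Chml, a Rab escort protein, -0.51, and the processing protease gene Rce1 -0.47. Fdps, which makes farnesyl diphosphate, was the largest in the other direction, at 0.92. Ggps1, which makes geranylgeranyl diphosphate, had a ratio of 0.01.

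With 2 arrays an expression pattern is 1 ratio, so likeness to the members has little to go on. Among 678 genes within 0.5 of the log2 signal of Igtp, the median member, the 3 with the nearest ratio were Stxbp3 (7765 with LPS+CPN and 3890 with GGOH), Ezr (-1.04) and Klf6 (-0.98). The 4 measured probe sets of Klf6 outside the cross-hybridizing class ran from -1.60 to -0.44. Actb, given as a bright reference, had a ratio of 0.21, or -0.37 at its other probe set.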

How the data were processed

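The authors deposited a linear signal intensity for each probe set on each of the 2 arrays. The submitters' processing notes name MAS5, which combines a probe set's probes into 1 background-corrected signal; no version or filter is given in the sources used here. The platform annotation gave 1 gene symbol for 34945 of 45037 probe sets that are not controls, several for 932 and none for 9160. Gene values leave out 2038 _x_at probe sets and probe sets with several symbols, including 1 that names a member. A gene is represented by its brightest probe set (mean log2 signal over both arrays). The floor is the 50th percentile of pooled signals; a gene at it on 1 array has a bound, and on both arrays is not measured. With 1 array per group there is no test, and precision is limited by the number of arrays.

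The members and gene lists were chosen with earlier results of these data known. The named genes are all members, the 4 largest ratios of each pathway list, genes always given (such as Irf1, Irf8 and Fnta) and the 3 nearest to the median member; others were picked after their values were seen. The 9 other settings are 4 scalings (array medians, quantile, lowess with span 0.4, equal macrophage markers), a floor at the 25th or the 75th percentile, adding the floor as a pseudocount, the median over probe sets, and _x_at probe sets kept. The ratio and calling steps were tested on simulated arrays with changes larger than 2-fold and noise below the spread between probe sets. That test does not show how certain a call near 2-fold is. Python 3.11.15, pandas 2.3.3 and statsmodels 0.14.6 were used. Member and promoter genes were matched by symbol, and 9 of 9 measured members had the same symbol in RefSeq. Some values are not reported here.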

Additional observations from a re-analysis of the deposited data

How the results depend on the processing

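All 9 measured members kept a log2 ratio below 0 under each of the 9 other settings, and none was 2-fold higher under any. The count at least 2-fold lower ran from 4 to 6, and the median of the members from -1.18 to -0.82. Only Gbp6 moved further than the pooled SD of 0.45, to -0.86 as the median over its probe sets. The list of other GBP and IRG genes had a median of -0.54 with the floor at the 25th percentile, where the marker medians were 3.17 (mesothelial and fibroblast) and -0.21 (T, NK and innate lymphoid). With the floor at the 75th percentile the lymphoid median was -0.42 and that of dendritic cell markers -0.52. The cause was not tested, though fewer or more genes count as measured at these floors. The median of macrophage markers ran from -0.36 to 0.02. Over all genes, 634 were at least 2-fold higher and 191 lower (76.8% of calls higher). The numbers were 529 and 332 with array medians (61.4%), 503 and 307 after quantile normalization (62.1%) and 868 and 101 under equal macrophage markers (89.6%). They were 1658 and 1127 (59.5%) and 126 and 88 (58.9%) with the lower and higher floor. Array medians moved the median of all genes to -0.17 and equal macrophage markers to 0.17. No paired analysis was possible because each group has 1 array. Without replicates, no ratio has an error of its own.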
